A study of Mus musculus with 4 samples.

Results

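The HoxB genes Hoxb2, Hoxb3, Hoxb4, Hoxb5, Hoxb6, Hoxb7, Hoxb8 and Hoxb9 were followed in RNA sequencing libraries from mouse embryonic forelimbs, in the order in which they lie on chromosome 11. The genes were taken by name, and all 8 were found among the 17712 genes of the table. Forelimbs of Swiss Webster embryos of 33 to 35 somites were compared between wild-type and Shh null littermates, with 2 libraries for each genotype. The age label gives stage E10.25 and the source label stage E10.5. Shh encodes Sonic hedgehog, the signal of the posterior limb margin. The allele behind the null genotype is not described, and each library's number of embryos is not given. The series text calls the libraries technical replicates, so the p-values below measure only the spread between these libraries. Levels are in CPM, reads scaled to library size by the TMM method, and the whole reads behind them were recovered.

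Hox genes encode homeodomain transcription factors that give cells their position along the body axis. They lie in clusters in which genes at the 3′ end are switched on earlier and farther forward than genes at the 5′ end, and genes in the same place of different clusters are called paralogs and share a number. In the limb bud the HoxA and HoxD clusters carry most of the known patterning roles, and those at their 5′ ends respond to Sonic hedgehog. HoxB genes are better known from the hindbrain, the spinal cord, the lateral plate mesoderm and blood.

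The recognition helix of the homeodomain, the part that reads DNA, is much alike among these genes. Its coding bases are shown because reads from so similar a stretch may fit more than 1 member. The 36 bases are printed below from 5′ to 3′ for the nearest pair, Hoxb6 and Hoxb7, and for their 5′ neighbours Hoxb8 and Hoxb9, from the longest coding transcript of each gene in GENCODE mouse release M21, with capitals at the 21 positions that are the same in all 8 genes.
Hoxb6: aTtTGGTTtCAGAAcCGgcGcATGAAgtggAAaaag
Hoxb7: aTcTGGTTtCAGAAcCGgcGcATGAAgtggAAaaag
Hoxb8: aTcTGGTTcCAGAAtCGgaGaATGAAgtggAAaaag
Hoxb9: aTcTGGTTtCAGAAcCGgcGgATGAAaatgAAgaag
Over the 28 pairs of members this stretch was between 66.7% and 97.2% identical, with Hoxb6 and Hoxb7 the nearest pair. The whole homeobox was between 58.9% and 88.9% identical. The longest run of identical bases between the transcripts of any pair was 37 bases, again between Hoxb6 and Hoxb7. Against same-numbered genes of the other clusters the longest run was 50 bases, between Hoxb9 and Hoxc9. With no read length given, the share of reads that could fit more than 1 of these genes is not known, and the counts are uncertain to that extent.

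The members span 82.6 kb of the plus strand in build GRCm38 (mm10), from Hoxb9 at chr11:96271457-96276595 through Hoxb8 (chr11:96281905-96285315), Hoxb7 (chr11:96286623-96290162), Hoxb6 (chr11:96292476-96301569), Hoxb5 (chr11:96303336-96306121), Hoxb4 (chr11:96318267-96321638) and Hoxb3 (chr11:96323326-96347930) to Hoxb2 (chr11:96350525-96354012). Hoxb9 thus marks the 5′ side and Hoxb2 the 3′ side. Exons of 3 members overlap antisense genes in this annotation. In Hoxb3 52.9% of the exon bases are shared with Hoxb3os, in Hoxb2 27.3% with the same gene, and in Hoxb5 3.6% with Hoxb5os. The strand setting of the counting is not given, so reads of these 3 genes and their antisense partners cannot be told apart.

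Every member had a higher mean level in Shh null than in wild-type forelimbs. From the 3′ side of the cluster to the 5′ side the ratio of means grew step by step, while the fitted log2 fold changes given below did not rise at every step. The ratio of means was 1.18 for Hoxb2, 1.47 for Hoxb3, 1.49 for Hoxb4, 1.56 for Hoxb5, 1.64 for Hoxb6, 2.42 for Hoxb7, 2.74 for Hoxb8 and 4.20 for Hoxb9. Hoxb9 and Hoxb7 rose by limma (adjusted p = 0.00713 and 0.0342 over all genes tested), 5 members were tested and not called, and Hoxb8 was too low to be tested. Over all tested genes 1.24% were called higher by limma. By edgeR 2 members were called higher, against 1.33% of tested genes, and by DESeq2 3, against 1.91%. In the authors' deposited table, 3 members are higher at a false discovery rate under 0.05, against 2.33% of its genes. Hoxb9 reached the minimum of 1 CPM in 2 libraries through the Shh null group, together with wild type 2, whereas 6 members reached it in all 4 libraries. Of the 8 members, 7 had both Shh null libraries above both wild-type libraries, against 24.9% of all genes of the table, and Hoxb2 was the exception. The count of members called lower was 0 by limma (1.24% of tested genes), 0 by edgeR (1.12%) and 0 by DESeq2 (2.06%). With limma's unadjusted p under 0.05, 0 members were lower and 6 were higher, against 9.5% of tested genes higher. The share of tested genes lower at that threshold was not computed. In bulk tissue a larger share of cells with a gene on and more RNA in each such cell cannot be told apart.

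**Figure D1:**
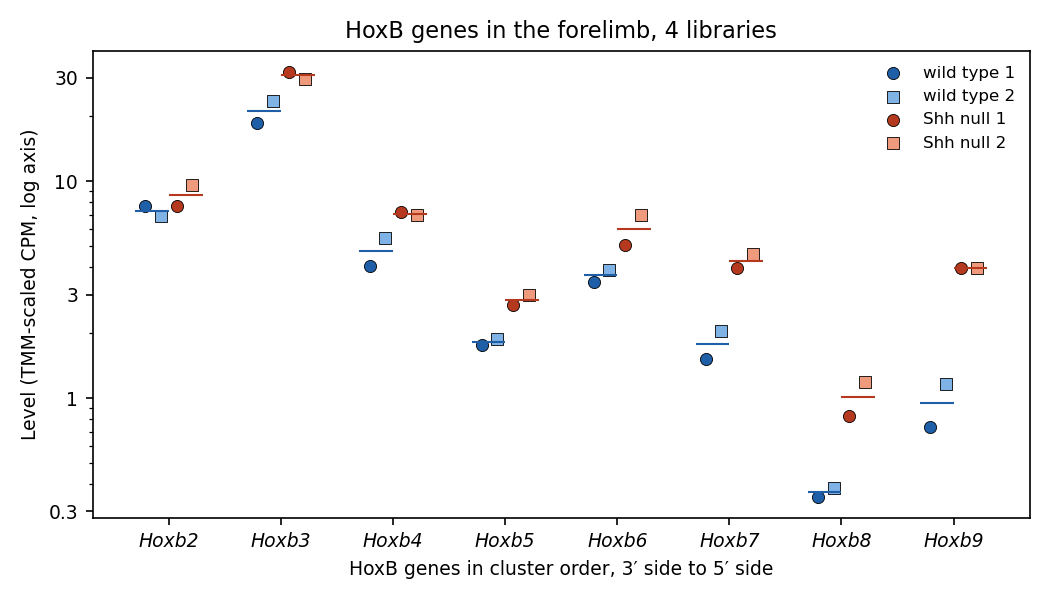
Level of each HoxB gene in each library, in TMM-scaled CPM on a log axis, with genes from the 3′ side to the 5′ side; points are libraries and short lines are group means. The Shh null points lie above the wild-type points for every gene except Hoxb2, and the gap is widest for Hoxb9.

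The 3′ members, Hoxb2, Hoxb3 and Hoxb4, carried most of the HoxB reads and had the 3 smallest ratios of means. Hoxb2, which patterns the hindbrain, had wild-type levels of 7.69 and 6.89 CPM and Shh null levels of 7.67 and 9.56 CPM. The groups overlapped, because Shh null 1 lay just under wild type 1. The log2 fold change, on the scale of log2(CPM + 1) used for every fitted value here, was 0.21 ± 0.17 (SE, 95% interval −0.17 to 0.59; limma adjusted p = 0.546). The interval therefore includes both no difference and a rise as large as that of its neighbours.

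Hoxb3, a hindbrain gene and the most abundant member, had wild-type levels of 18.5 and 23.5 CPM and Shh null levels of 31.9 and 29.6 CPM. Both Shh null libraries were above both wild-type libraries. The log2 fold change was 0.54 ± 0.14 (SE, 95% interval 0.22 to 0.86), and the gene was not called by limma (adjusted p = 0.0837). DESeq2 called it (adjusted p = 0.0495), and so did limma without wild type 2 (adjusted p = 0.00715). In the authors' deposited table Hoxb3 has a log2 fold change of 0.56 with a false discovery rate of 0.036.

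Hoxb4, known for promoting the self-renewal of blood stem cells, had wild-type levels of 4.07 and 5.45 CPM and Shh null levels of 7.22 and 6.95 CPM. The groups did not overlap, and the gene was not called (log2 fold change 0.50 ± 0.18 SE, 95% interval 0.10 to 0.90; limma adjusted p = 0.179).

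Hoxb5 and Hoxb6 lie in the middle of the cluster, and their ratios of means lay between those of the 3′ and the 5′ members, although the fitted log2 fold change of Hoxb5 was below those of Hoxb3 and Hoxb4. Hoxb5, whose loss shifts the position of the forelimb along the body, had wild-type levels of 1.75 and 1.87 CPM and Shh null levels of 2.70 and 2.97 CPM. The libraries of each group lay close together and the groups did not overlap, yet only 50 and 34 reads stood behind the wild-type values. The log2 fold change was 0.45 ± 0.18 (SE, 95% interval 0.04 to 0.85; limma adjusted p = 0.23). Hoxb6, a marker of lateral plate mesoderm, had wild-type levels of 3.44 and 3.91 CPM and Shh null levels of 5.10 and 6.95 CPM. Here the Shh null libraries were the ones that lay apart, with Shh null 2 the highest. The log2 fold change was 0.58 ± 0.19 (SE, 95% interval 0.15 to 1.0; limma adjusted p = 0.149).

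The 5′ members, Hoxb7, Hoxb8 and Hoxb9, had the 3 largest ratios of means. Hoxb7, which is expressed in the trunk and the nephric duct, had wild-type levels of 1.51 and 2.04 CPM and Shh null levels of 3.98 and 4.62 CPM. Both Shh null libraries were above both wild-type libraries, and the lowest ratio between them was 1.95. Its log2 fold change was 0.94 ± 0.19 (SE, 95% interval 0.51 to 1.37; limma adjusted p = 0.0342). The call was also made by edgeR (adjusted p = 0.0402) and DESeq2 (0.0385). It ended without wild type 1 (0.0589), without Shh null 1 (0.217), without Shh null 2 (0.151), with quantile normalization (0.0853) and with no filter on low values (0.0804).

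Hoxb8, which gives a mirror-image limb with a new zone of Shh expression when it is forced on in the anterior forelimb bud, was the lowest member. It had 10 and 7 reads in wild type (0.351 and 0.386 CPM) and 20 and 26 reads in Shh null (0.829 and 1.19 CPM). The groups did not overlap, and the wild-type values were above the 0.105 and 0.165 CPM that a count of 0 allows. Over the pooled reads the ratio was 2.75, with a 95% counting interval of 1.54 to 5.11 that covers counting error only. Only 1 library reached 1 CPM, so the gene was left out of the main fit. With no filter on low values the log2 fold change was 0.55 ± 0.14 (SE) and the gene was not called (limma adjusted p = 0.124). This was below the 0.94 of Hoxb7 in the same fit. In the authors' deposited table its log2 fold change is 1.45 with a false discovery rate of 0.0879.

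Hoxb9, which helps to shape the thoracic ribs, had 21 reads in each wild-type library (0.737 and 1.16 CPM) and 96 and 87 reads in the Shh null libraries (3.98 and 3.98 CPM). The Shh null libraries were the same to 3 digits, and the lowest ratio between any Shh null and any wild-type library was 3.44. The log2 fold change was 1.36 ± 0.19 (SE, 95% interval 0.93 to 1.80; limma adjusted p = 0.00713), and on the recovered reads it was 2.12 by edgeR (adjusted p = 0.00856) and 2.10 by DESeq2 (0.000478). The pooled reads gave a ratio of 4.42 (95% counting interval 3.15 to 6.34). The call ended without Shh null 1 (limma adjusted p = 0.114) and without Shh null 2 (0.0767), while the log2 fold change stayed at 1.36 in both. Those fits called 56 and 99 genes in all, against 328 with all libraries.

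The order of the ratios was a property of the group means. All 7 steps from a gene to its 5′ neighbour rose in the ratio of means. Between single libraries, each Shh null library against each wild-type library, between 4 and 6 of the 7 steps rose, and 0 of the 4 pairs of libraries gave the full order. In 4 of 4 pairs, however, Hoxb7, Hoxb8 and Hoxb9 were the 3 genes with the largest ratios and Hoxb9 had the largest, and in 3 of 4 Hoxb2 had the smallest. The pairs share libraries and are not independent. From Hoxb2 to Hoxb6 the ratios between libraries ran from 0.998 to 2.02. For Hoxb7 they ran from 1.95 to 3.06, for Hoxb8 from 2.15 to 3.39 and for Hoxb9 from 3.44 to 5.40.

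**Figure D2:**
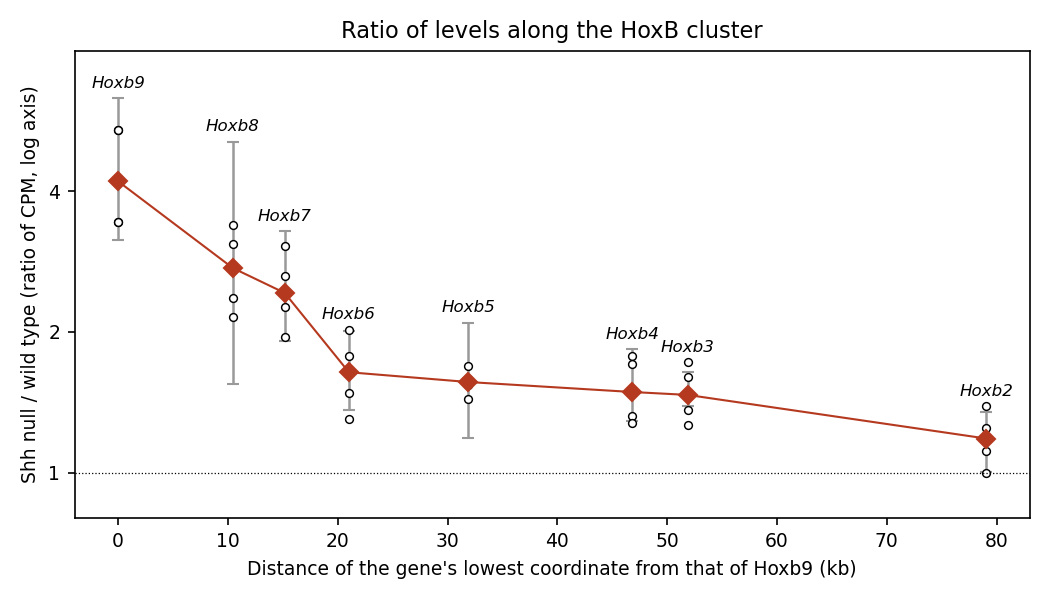
Ratio of Shh null to wild-type level (log axis) against the distance of each gene from Hoxb9 in kb; diamonds are ratios of mean CPM, open circles the 4 ratios between single libraries, and grey bars the 95% counting interval of the ratio of pooled reads. The ratio is highest at Hoxb9 (4.20), between 1.47 and 1.64 from Hoxb3 to Hoxb6, and lowest at Hoxb2 (1.18).

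Summed over the 8 genes, the HoxB level reached 38.0 and 45.2 CPM with Shh intact and 63.4 and 65.9 CPM without it. The groups did not overlap, and the ratio of means was 1.55. The two-sided exact permutation p was 0.333, the smallest this design allows. Hoxb2, Hoxb3 and Hoxb4 together stood at 33.0 ± 3.93 and 46.5 ± 0.44 CPM (SD, n = 2), a ratio of 1.41. Hoxb7, Hoxb8 and Hoxb9 together stood at 3.09 ± 0.696 and 9.29 ± 0.705 CPM (SD, n = 2), a ratio of 3.01. The 5′ genes therefore took a larger part of the HoxB reads. Their summed level divided by that of the 3′ genes was 0.0858 and 0.10 in the wild-type libraries and 0.188 and 0.212 in the Shh null libraries (exact permutation p = 0.333, two-sided).

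Within a library this make-up does not depend on how the libraries were scaled. Of the reads of the 8 genes, Hoxb9 took 1.94% and 2.56% in wild-type libraries, against 6.28% and 6.04% in Shh null ones. The 95% Wilson intervals reached 3.88% at most in wild type and began at 4.92% in Shh null. Hoxb7 took 3.97% and 4.51% against 6.28% and 7.01%, with intervals that overlapped (up to 6.16% against from 5.17%). Hoxb8 took 0.923% and 0.854% against 1.31% and 1.81%, which the counting intervals could not separate. The share of Hoxb2 was 20.2% and 15.2% against 12.1% and 14.5%. The interval of wild type 2 overlapped those of both Shh null libraries, and that of wild type 1 overlapped neither. Hoxb3 held 45.0% to 52.0% in all 4 libraries. The intervals cover counting error only.

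**Figure D3:**
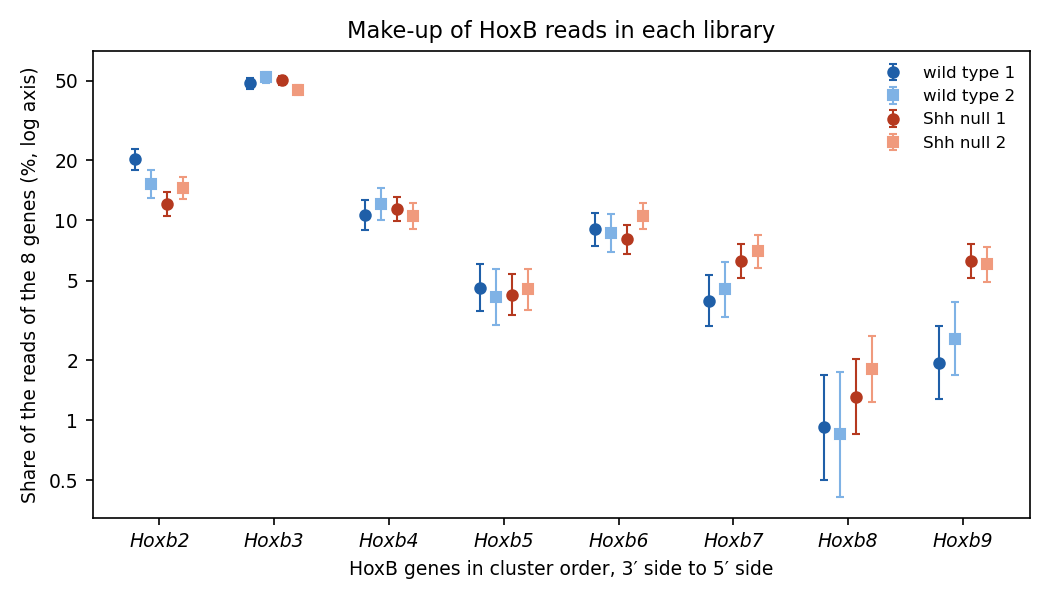
Share of the reads of the 8 HoxB genes taken by each gene in each library (percent, log axis), with 95% Wilson intervals for counting error. Hoxb9 takes 1.94% and 2.56% in wild type and about 6% in Shh null, whereas Hoxb3 to Hoxb6 keep similar shares.

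Levels of different genes can be compared only per length of transcript, here as CPM per kb of annotated exon. In wild type Hoxb3 was the highest at 4.94 ± 0.827, followed by Hoxb2 (2.09 ± 0.162), Hoxb6 (1.87 ± 0.17), Hoxb4 (1.86 ± 0.381), Hoxb7 (1.15 ± 0.242), Hoxb5 (0.651 ± 0.03), Hoxb9 (0.368 ± 0.115) and Hoxb8 (0.14 ± 0.0093), all in CPM per kb (SD, n = 2). The library ranges of Hoxb2 and Hoxb6, and of Hoxb6 and Hoxb4, overlapped, and all other neighbours in this order were apart. In Shh null Hoxb3 stayed first (7.24 ± 0.374), Hoxb6, Hoxb7, Hoxb4 and Hoxb2 followed with overlapping neighbours between 3.07 and 2.47, and Hoxb9 (1.55) lay above Hoxb5 (1.02 ± 0.0705) and Hoxb8 (0.383 ± 0.0966). Hoxb9 and Hoxb5 thus changed places between the genotypes, and their library ranges did not overlap in either.

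Other measured genes of the cluster were low. Hoxb1, at the 3′ end, had wild-type levels of 0.0702 and 0.441 CPM and Shh null levels of 0.415 and 0.32 CPM, and these groups overlapped. The long non-coding gene Gm53 on the 5′ side of Hoxb9 was at 0.175 and 0.331 CPM and at 0.332 and 0.412 CPM. Both lay below the filter and were not tested. Hoxb13, Hoxb3os and Hoxb5os were not analysed here.

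A pair of microRNA genes lie in the HoxB cluster, and their mature products are shown because some HoxB transcripts hold matches to them. The sequences are from RefSeq (GRCm38.p6), with the seed, bases 2 to 8, in capitals.
miR-196a-5p: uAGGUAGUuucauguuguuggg
miR-10a-5p: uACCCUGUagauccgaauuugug
The gene of miR-196a lies on the 5′ side of Hoxb9 (mature bases at chr11:96265187-96265208) and that of miR-10a between Hoxb5 and Hoxb4 (chr11:96317186-96317208). miR-196a is known to direct the cleavage of Hoxb8 messenger RNA. The best paired window in the Hoxb8 3′ untranslated region is printed with capitals at the bases that pair by Watson-Crick rules.
Hoxb8 site: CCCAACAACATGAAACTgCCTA
Of its 22 bases, 21 paired in this way and 1 as a G-U wobble, which falls in the seed. In each of the other 7 members the best window of that length paired at no more than 18 bases, wobble included. Exact seed matches for miR-196a stood in the 3′ untranslated regions of Hoxb6 and Hoxb7, 1 in each, against 5.7% of 20059 genes. An exact match for miR-10a stood in that of Hoxb3, against 11.4% of genes. These regions differ in length, and a match is a description of the sequence. The libraries measure longer RNA, and reads at the microRNA genes were few. Mir196a-1 was at 0.105 and 0.0551 CPM in wild type and at 0.124 and 0.0457 CPM in Shh null, at or under 3 reads in each library, and Mir10a was at 0.351 and 0.496 CPM and at 0.249 and 0.961 CPM.

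The promoter table held 2 of the 8 members, Hoxb4 and Hoxb8. The 250 bases before the start of Hoxb8 (chr11:96281655-96281904, plus strand, GRCm38.p6, RefSeq) are printed because this gene is one of the 5′ members. Capitals mark matches to the motifs searched on both strands, which were GACCACCCA for GLI factors, the transcription factors of the hedgehog pathway, TGATNNAT for HOX proteins with their PBX partners, TTTATNG for CDX factors, and AGGTCA repeated after a spacer of 5 bases for retinoic acid receptors.
Hoxb8 promoter: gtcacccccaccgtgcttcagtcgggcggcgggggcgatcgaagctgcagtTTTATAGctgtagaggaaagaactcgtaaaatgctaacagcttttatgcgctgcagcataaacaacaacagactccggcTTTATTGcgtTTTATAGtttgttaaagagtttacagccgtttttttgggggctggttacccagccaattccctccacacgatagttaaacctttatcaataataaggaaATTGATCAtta
It held 3 matches to the CDX motif, which 10.16% of 27025 promoters of this length hold at least once, and 1 match to the HOX and PBX motif, which 7.91% hold. It held no match to the GLI motif (0.21% of promoters) or the retinoic acid motif (0.01%). The Hoxb4 promoter held no match to any of the 4 motifs. Matches do not show binding, and their absence says only that these letters are not in this window.

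Genes outside the cluster gave the local background. Of the 5 nearest protein-coding genes on each side, 8 were in the table and 7 were tested, and 0 were called by limma, edgeR or DESeq2 (by limma's unadjusted p under 0.05, 0 were higher and 1 lower). The median log2 fold change of these 7 was 0.09, against 0.00 over all tested genes and 0.54 over the 7 tested members. Atp5g1, which encodes a subunit of ATP synthase, had the largest difference, with 44.2 and 35.8 CPM in wild type and 29.2 and 30.3 CPM in Shh null (limma adjusted p = 0.141). Skap1, the next gene beyond Hoxb1, was at 0.14 and 0.22 CPM in wild type and at 0.456 and 0.229 CPM in Shh null and was below the filter. Snx11 (15.3 and 16.2 CPM as group means) and Cbx1 (119 and 126 CPM), farther out on the same side, were not called (adjusted p = 0.823 and 0.677).

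Paralogs in the other clusters were compared next. Of the HoxC genes of groups 4 to 9, 5 were tested, of which Hoxc6 rose (12.0 and 15.6 CPM to 26.9 and 22.2 CPM, limma adjusted p = 0.0351) and 4 were not called. DESeq2 called 2 of the 5 higher, Hoxc5 being the other (adjusted p = 0.00841). By limma's unadjusted p under 0.05, 4 of 5 were higher, against 9.5% of all tested genes. The median log2 fold change of these 5 HoxC genes was 0.67. Of the 8 tested HoxA genes of groups 1 to 9 and the 4 tested HoxD genes of those groups, 0 were called by limma, edgeR or DESeq2, with 3 HoxA and 1 HoxD gene higher and 0 and 1 lower at an unadjusted p under 0.05. Their medians were 0.26 and 0.02. Beyond group 9, where HoxB has only Hoxb13, 2 HoxA genes (Hoxa10 and Hoxa13) and 4 HoxD genes (Hoxd10 to Hoxd13) were called lower by limma, with an adjusted p of 0.0146 for Hoxa10 and 0.00361 for Hoxd10. Hoxa11 was lower too, at 23.9 and 24.6 CPM in wild type and 12.5 and 17.4 CPM in Shh null. It was called by DESeq2 (adjusted p = 0.0205) and not by limma (0.0649).

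Group 9 has a member in each of the 4 clusters. Hoxa9 had wild-type levels of 70.2 and 71.8 CPM and Shh null levels of 66.7 and 66.9 CPM, and Hoxd9 at 36.1 and 56.9 CPM and at 44.0 and 43.9 CPM. Hoxc9 was low, at 1.37 and 0.937 CPM and at 1.91 and 1.37 CPM. None of these 3 paralogs was called, while Hoxb9 rose. The log2 ratio of Hoxb9 to Hoxa9 within a library, taken between values of CPM + 1, moved from −5.22 to −3.77, that of Hoxb9 to Hoxd9 from −4.58 to −3.17 and that of Hoxb9 to Hoxc9 from −0.15 to 0.92. Hoxb8 against Hoxd8 moved from −5.02 to −4.06, whereas against Hoxc8 it stood at −2.75 and −2.69 with overlapping libraries. That overlap depends on the pseudocount, because Hoxb8 is low. With a pseudocount of 0.25 the difference of Hoxb8 to Hoxc8 was 0.49 rather than 0.06, and the groups did not overlap. Over 16 such pairs, 9 ratios were higher in both Shh null libraries than in both wild-type libraries, 2 were lower (Hoxb4 to Hoxc4 and Hoxb5 to Hoxc5) and 5 overlapped. For single genes, 24.9% of the table were higher in this sense, and the share over all gene pairs was not computed. Several pairs share a HoxB member, so they are not independent. By cluster, at CPM + 1, the ratio was higher in 4 of 4 pairs with HoxD, 4 of 7 with HoxA and 1 of 5 with HoxC. With a pseudocount of 0.25, 9 ratios were again higher, but not the same 9. Hoxb3 to Hoxd3 then overlapped (difference 0.05 rather than 0.11) and Hoxb8 to Hoxc8 was higher. The split by cluster therefore depends on the pseudocount. At CPM + 1, the exact permutation p of each of the 11 pairs that did not overlap was 0.333. This is the smallest that 2 against 2 libraries allow, and it was 0.484 adjusted over the 16 pairs.

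**Figure D4:**
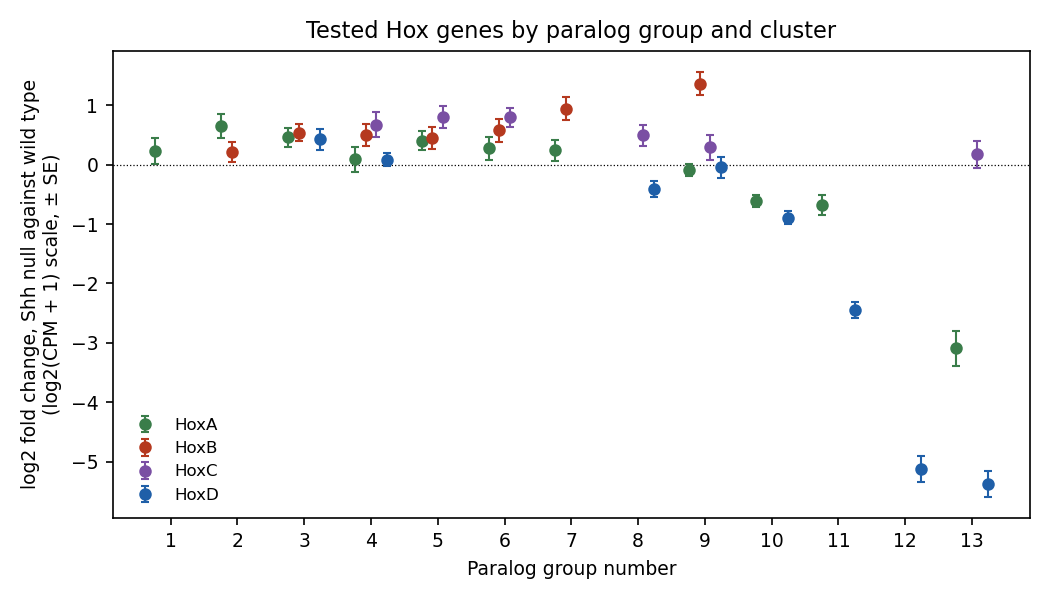
Log2 fold change (log2(CPM + 1) scale, ± SE) of every tested Hox gene against its paralog group number, coloured by cluster. HoxB values lie between 0.21 and 1.36, with the highest at group 9, HoxC values lie between 0.17 and 0.79, and HoxA and HoxD values from group 10 on lie below 0.

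Genes that act with or on Hox genes were looked up from lists of known families. PBX and MEIS proteins bind DNA together with Hox proteins, and of 9 tested genes of these families 0 were called by limma or edgeR and 1 was higher by DESeq2. In limma 4 were higher and 1 lower at an unadjusted p under 0.05, with a median log2 fold change of 0.28. Over all tested genes 9.5% were higher at that threshold. Retinoic acid and CDX factors switch on HoxB genes in the trunk. No CDX gene was tested, because Cdx1 did not pass the filter and Cdx2 and Cdx4 were not among the genes of the table. Of 13 tested genes of this list Cyp26b1, which encodes an enzyme that breaks down retinoic acid, fell from 57.6 and 60.4 CPM to 31.1 and 29.8 CPM (limma adjusted p = 0.00215), and 12 were not called by limma. DESeq2 also called 1 higher, Crabp2 (adjusted p = 0.0269). By limma's unadjusted p under 0.05, 2 were higher and 1 lower, with a median log2 fold change of 0.16. The retinoic acid receptor gene Rarb was at 36.6 and 55.8 CPM and at 54.0 and 67.1 CPM, and these groups overlapped. Of 23 tested Polycomb and Trithorax genes, which keep Hox genes off or on, 0 were called by limma, edgeR or DESeq2, with 1 higher and 0 lower by limma's unadjusted p under 0.05 and a median of 0.04.

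HoxB genes are also active in tissues next to the limb bud, so marker levels of those tissues are given beside the rise. The 14 somite and flank genes in the table summed to 216 and 192 CPM in wild type and to 202 and 171 CPM in Shh null, which overlap. Of 10 tested, Pax1 was called higher and Osr1 lower, with 1 higher and 3 lower by limma's unadjusted p under 0.05. The sum hides flank genes that differed between the wild-type libraries. Gata4 was at 0.0702 and 2.81 CPM in wild type and at 0.332 and 0.549 CPM in Shh null. Wt1 was at 0.702 and 3.53 CPM and at 0.622 and 0.915 CPM, and both genes were below the filter. Gata6 was at 1.86 and 4.96 CPM and at 2.82 and 4.80 CPM. The neural tube list summed to 15.1 and 13.3 CPM and to 14.1 and 13.7 CPM, with 0 of 3 tested genes called by limma, edgeR or DESeq2 (0 at an unadjusted p under 0.05), and its genes Sox1 and Nkx6-1 were at or under 3 reads in each library. The neural crest list was higher in both Shh null libraries, at 62.5 and 57.2 CPM against 47.8 and 43.4 CPM, and 1 of 5 tested genes, Erbb3, was called higher. The crest gene Sox10 itself was at 0.421 and 0.551 CPM in wild type and at 0.29 and 0.229 CPM in Shh null, and Foxd3 was at or under 3 reads in each library. The blood and macrophage list was higher as well, at 33.4 and 34.8 CPM against 27.6 and 27.7 CPM, and 1 of 7 tested genes, Cx3cr1, was called higher. By limma's unadjusted p under 0.05, 4 of the 7 were higher and 0 lower, while 9.5% of all tested genes were higher. The macrophage genes Csf1r, Cx3cr1 and C1qb had ratios of means of 1.73, 2.73 and 2.45. Among lower macrophage genes of the list, Fcgr3 had a ratio of 1.98 without overlap, whereas Aif1 (1.06) and Tyrobp (1.42) had overlapping groups. Kit, which had the largest level on the list in wild type (mean 16.4 CPM), was at 13.5 CPM in Shh null and was not called. The endothelial list overlapped (226 and 290 CPM against 269 and 271 CPM, 0 of 9 called by limma, edgeR or DESeq2, 0 at an unadjusted p under 0.05). The surface ectoderm list stood at 317 and 309 CPM in wild type and at 351 and 365 CPM in Shh null, with 0 of 8 called by these tools and 3 higher at an unadjusted p under 0.05. The erythroid list spread widely within the genotypes, at 11213 and 2995 CPM in wild type and at 3822 and 6473 CPM in Shh null, with 0 of 7 called by these tools and 0 at an unadjusted p under 0.05. The part of the flank, crest, blood and ectoderm markers in the HoxB differences was not tested.

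Markers of the limb itself were present in every library. Tbx5, the forelimb selector gene, was at 65.0 and 61.5 CPM in wild type and at 80.2 and 65.0 CPM in Shh null and was not called. Pitx1, which specifies the hindlimb, was at 0.0351 and 0.11 CPM in wild type and at 0.249 and 0.457 CPM in Shh null. These groups did not overlap, and Pitx1 was below the filter. The 2 tested genes of the hindlimb list, Isl1 and Tbx4, were not called by limma, edgeR or DESeq2. Isl1 was at 1.61 and 1.27 CPM in wild type and at 4.52 and 2.84 CPM in Shh null, higher at limma's unadjusted p under 0.05. Tbx4 was at 4.53 and 3.69 CPM and at 3.69 and 3.11 CPM. Of 10 limb mesenchyme genes Alx4, Twist1, Prrx2 and Prrx1 were called higher and Hand2 and Fgf10 lower. Shh was at 11.4 and 7.88 CPM in wild type and at 3.15 and 2.42 CPM in Shh null, in the direction of the labels. The sex-linked list also moved, with Xist called higher and 4 Y-linked genes lower, and the part of embryo sex in the HoxB differences was not tested.

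The genes whose profile over the 4 libraries lay nearest to that of the HoxB sum were Fhod3, Frem2, Lhx2, Fgd5 and Asb4, by the distance between centred log2(CPM + 1) values among 11374 genes with a mean of at least 2 CPM. Fhod3, the nearest, had 15.4 and 17.9 CPM in wild type and 26.3 and 27.5 CPM in Shh null, at a distance of 0.0457. For Hoxb9 the nearest were Angptl1 (distance 0.159), Corin, Alx4, Gria2 and Runx2. Angptl1 had 4.14 and 5.62 CPM in wild type and 15.9 and 13.9 CPM in Shh null. The measure rests on 4 libraries in 2 groups, and many genes that differ between the genotypes can lie near by it.

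Across settings the direction was steadier than the calls. All 77 fitted log2 fold changes of the 7 tested members under the alternatives were above 0. Between 0 and 3 members were called higher, and Hoxb9 had the largest fitted change in each setting.

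**Figure D5:**
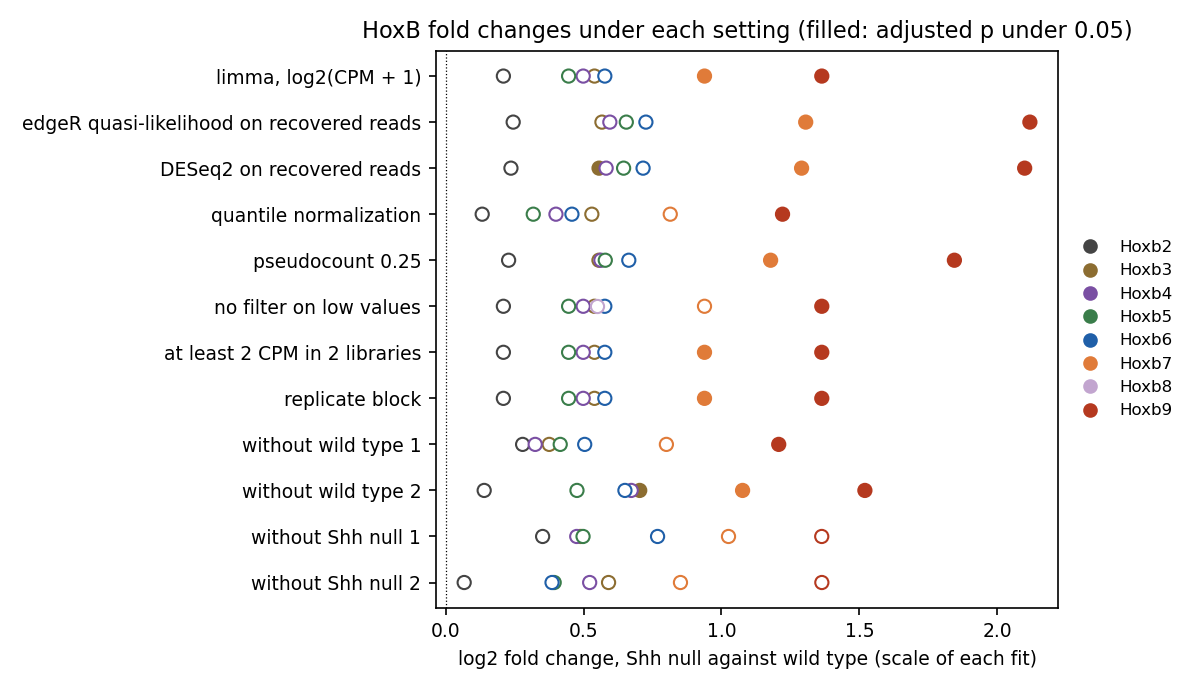
Log2 fold change of each HoxB gene under each setting, on the scale of that fit, with filled points for an adjusted p under 0.05. All values lie to the right of 0, and Hoxb9 is farthest right in each row and loses its call only without either Shh null library.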

How the data were processed

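Per the labels' protocols, TRIzol was used to obtain total RNA and Illumina methods to make the libraries. Per the submitters' processing notes, build mm10 was used with edgeR 3.4.2, HTSeq 0.5.4p5, TopHat2 2.0.9 and SAMtools. What each did, which annotation was counted and whether by strand is not given in the sources used here.

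The authors deposited 1 signal value per gene and library. All values (100%, within 0.001 reads) were whole multiples of 1 read, and TMM factors recomputed from these reads gave the same scale, so the signal is TMM-scaled CPM. The libraries held 29620468 and 18456502 reads (wild type 1 and 2) and 23206944 and 21489093 reads (Shh null 1 and 2). A second table holds the authors' own log2 fold changes, p-values and false discovery rates, and 17712 rows of it were read.

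Genes with at least 1 CPM in at least 2 libraries (13224) were fitted as log2(CPM + 1) with limma 3.58.1 in R 4.3.3, genotype being the only term, and called at a Benjamini-Hochberg adjusted p under 0.05. The recovered reads were also tested with DESeq2 1.42.0 and with the quasi-likelihood method of edgeR 4.0.16, and other filters, a pseudocount of 0.25, quantile normalization, a replicate block and the omission of each library were tried. Exon lengths and positions are from GENCODE M21. Counting intervals are 95%, exact binomial for ratios of pooled reads and Wilson for shares. The members and the lists were chosen with earlier results of these data known. Named genes were the members, other genes of the HoxB interval, 5 protein-coding neighbours on each side, Shh, at most 4 called genes of each list, and the 5 genes nearest in profile to the HoxB sum and to the most changed member. Other list genes and the paralogs were named after their values were seen. Some sequences and genes are not reported here.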

Additional observations from a re-analysis of the deposited data

How the results depend on the processing

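The log2 fold change of every tested HoxB member stayed above 0 under all 11 alternatives. Hoxb9 lost its call only when a Shh null library was left out (log2 fold change 1.36 and 1.36), and ranged from 1.21 to 1.52 when 1 library was left out. Hoxb7 lost its call with quantile normalization (0.81), with no filter on low values (0.94) and without wild type 1, Shh null 1 or Shh null 2 (between 0.80 and 1.08 when 1 library was left out). The number of members called higher, 2, became 1 with quantile normalization and 1 with no filter, and ranged from 0 to 3 when 1 library was left out. Over all genes 328 were called, 164 higher and 164 lower. DESeq2 called 526 (253 and 273), and with no filter 170 were called (79 and 91). When 1 library was left out the counts ranged from 56 to 802 in all, from 15 to 386 higher and from 41 to 416 lower. With 1 library left out the counts moved in both directions, and the cause was not tested. Those fits rest on fewer samples, and the unfiltered one tests more genes. The HoxB sum had a log2 ratio of 0.64, and between 0.52 and 0.76 when 1 library was left out.

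Replicate numbers are shared between the genotypes but name no common animal or batch. With the replicate block 396 genes were called (220 higher and 176 lower) and 2 members. Deviations of same-numbered libraries correlated at r = −0.20 over 13224 genes. With the numbers crossed, a pairing chosen after seeing the data, 1386 genes were called (641 higher and 745 lower) and 3 members higher.

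At this depth a wild-type level like that of Hoxb8 rests on 10 and 7 reads. Hoxb8 could be fitted only with no filter, so its other alternatives were not run. In wild type, the order per kb was the same for all 8 members with unshared exon bases or the longest transcript; in Shh null, places 2 to 5 changed.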
